A study of Homo sapiens with 24 samples.

Results

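The 5 genes described here are long non-coding RNAs known to stay largely in the nucleus: MALAT1, NEAT1, KCNQ1OT1, TUG1 and MEG3. They were matched by gene name to 5 of the 60658 rows of the deposited count tables, and 4 of the 5 averaged 50 or more counts per library. The set was selected on measured values of these data. Its large spread over libraries, and the level of MALAT1 in syn-gRNA knockdown against control libraries of the same column letter, were known when the genes were chosen. Differences between setups, ratios within a letter and correlations over libraries of the 5 genes are therefore given as descriptions. Where a fit over all genes called a member, this is stated beside the share of all genes called, except in some settings of the closing section. Nothing is read from such a call.

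RNA was sequenced from human cells labelled SH-SY5Y, a neuroblastoma line, 48 h after transfection with an agent against the circular RNA ciRS-7 (the knockdown or KD arm) or a non-targeting control (NTC) of the same kind. In the agoshRNA setup, both arms received a vector that expresses a short hairpin RNA loaded into Argonaute. A plasmid for the RNA-cutting enzyme CasRx with GFP was combined with a guide plasmid in 2 setups, called gRNA where the guide was mature and pre-gRNA where it was a precursor. The last, syn-gRNA, used a chemically synthesised guide, whose delivery is not given in the sources used here. Each of the 8 groups had 3 libraries, 24 in all, which carry the letters A, B and C in the column names. The labels do not say that these came from separate cultures, so every spread below may be technical. The libraries were poly(A)-selected and non-stranded.

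Many nuclear long non-coding RNAs act close to where they are made. MALAT1 is an abundant component of nuclear speckles, where splicing factors gather, and NEAT1 is the RNA scaffold of paraspeckles, bodies that hold the proteins NONO and SFPQ. KCNQ1OT1 is an imprinted antisense transcript that silences neighbouring genes in cis, TUG1 is a broadly expressed transcript with nuclear and cytoplasmic pools, and MEG3 is the maternally expressed RNA of the DLK1 locus. MALAT1 and the long isoform of NEAT1 end without a usual poly(A) tail: RNase P cuts them upstream of a tRNA-like structure, and a triple helix of U-rich and A-rich stretches protects the new end. Capture of such RNAs in a poly(A)-selected library rests on internal A-rich stretches or on short isoforms, so a level in such a library can reflect capture as well as abundance.

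The 3′ end elements of MALAT1 and NEAT1 are shown because they set these RNAs apart from polyadenylated transcripts. Both were read from the GENCODE release 29 transcripts in build GRCh38, where MALAT1 lies at chr11:65506031-65506116 and NEAT1 at chr11:65445453-65445540, both on the plus strand. Capitals mark U-rich motif 1 (TTTCTTTT), U-rich motif 2 (TTTTGCTTT) and the A-rich tract (AAAAGCAAA), in DNA letters.
MALAT1: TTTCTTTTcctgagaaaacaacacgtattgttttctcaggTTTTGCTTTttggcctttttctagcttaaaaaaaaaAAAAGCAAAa
NEAT1: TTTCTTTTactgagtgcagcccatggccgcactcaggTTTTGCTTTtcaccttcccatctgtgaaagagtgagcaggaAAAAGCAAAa
Among the longest transcripts of 58721 genes, searched on the transcript strand with gaps of at most 40 and 80 bases between motifs, only MALAT1 and NEAT1 held the 3 motifs in this order. The motifs were taken from these RNAs, so this count describes how rare the arrangement is and is no test. The MALAT1 element lies 353 bases before the end of the annotated transcript, and the NEAT1 element ends with the annotated transcript.

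Promoter windows of 300 bases were available from RefSeq (build GRCh38.p14) for 3 of the 5 genes, MALAT1, TUG1 and MEG3. Those of MALAT1 (chr11:65497488-65497787) and TUG1 (chr22:30969015-30969314), both on the plus strand, are shown, since MEG3 was close to silent in these libraries. Capitals mark the CCAAT box (CCAAT or ATTGG) and the GC box (GGGCGG or CCGCCC).
MALAT1 promoter: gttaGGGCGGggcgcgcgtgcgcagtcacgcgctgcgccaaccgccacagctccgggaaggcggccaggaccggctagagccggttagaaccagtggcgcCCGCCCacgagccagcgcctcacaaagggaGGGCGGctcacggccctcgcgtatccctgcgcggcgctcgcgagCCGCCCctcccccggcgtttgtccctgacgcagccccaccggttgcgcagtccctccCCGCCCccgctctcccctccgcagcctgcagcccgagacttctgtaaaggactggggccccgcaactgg
TUG1 promoter: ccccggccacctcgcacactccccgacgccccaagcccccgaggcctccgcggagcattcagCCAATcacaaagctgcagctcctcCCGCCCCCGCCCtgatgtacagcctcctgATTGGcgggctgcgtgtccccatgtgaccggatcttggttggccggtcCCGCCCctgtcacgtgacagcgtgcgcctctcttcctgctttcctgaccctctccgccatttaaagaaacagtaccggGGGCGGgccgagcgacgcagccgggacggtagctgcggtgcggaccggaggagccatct
In the windows shown, MALAT1 had 5 GC boxes and no CCAAT box, and TUG1 had 4 GC boxes and 2 CCAAT boxes. Further RefSeq windows existed for 2 of the 3 genes, and their motifs are not given here. Of all 35116 promoter windows, 45.0% held a GC box and 34.6% a CCAAT box on either strand, so neither motif is rare.

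Total counts per library ran from 10994974 to 16233777 and mitochondrial genes took 3.36% to 5.13% of them. The row of CDR1-AS, the locus of ciRS-7, held 0 to 16 counts per library, so these poly(A)-selected libraries give no check of the knockdown. The defining markers went against the labelled cell type. Of 14 noradrenergic neuroblastoma markers, 2 had a mean over 10 CPM (counts scaled by the library total), their summed level was 59.7 to 138 CPM, and TH, DBH and PHOX2A had at most 5 counts in any library. Of 13 kidney-lineage markers of HEK293 cells, 11 had a mean over 10 CPM, with a summed level of 358 to 772 CPM. The cells are therefore called by their label only. Libraries also differed in how their counts followed GC content. This GC slope, the change in log2 level per 10 points of GC over protein-coding genes, ran from −0.61 to 0.83, and 5 libraries lay above 0.5: letter A of agoshRNA in both arms, gRNA KD A, and letter B of pre-gRNA in both arms.

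MALAT1 (ENSG00000251562.8_3, hg19 chr11:65265159-65273987, plus strand, 8829 exonic bases) was the most abundant member, with a mean of 896 CPM and rank 150 among all genes. Its counts ran from 1115 to 32925. The syn-gRNA libraries A, B and C had 1782, 2307 and 2995 CPM in KD and 1277, 1934 and 1953 CPM in NTC. These are bulk libraries, in which fewer expressing cells and less RNA per cell cannot be told apart. The syn-gRNA levels were above those of nearly every other library, and only agoshRNA KD B (1584 CPM) reached into their range. The agoshRNA libraries A, B and C had 81.2, 1584 and 628 CPM in KD and 108, 1257 and 951 CPM in NTC. The gRNA libraries had 106, 704 and 518 CPM in KD and 121, 583 and 559 CPM in NTC. The pre-gRNA libraries had 281, 223 and 577 CPM in KD and 218, 244 and 514 CPM in NTC. In agoshRNA and gRNA, KD and NTC libraries of one letter lay close together, while letters differed by 15.0-fold and 5.64-fold between the highest and the lowest. The highest library had 36.9 times the CPM of the lowest.

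NEAT1 (ENSG00000245532.8_4, hg19 chr11:65190245-65213011, plus strand, 22767 exonic bases) lies in the same region of chromosome 11 and had a mean of 170 CPM. These counts do not separate its short, polyadenylated isoform from the long one. The syn-gRNA libraries A, B and C had 247, 325 and 432 CPM in KD and 188, 296 and 318 CPM in NTC. The agoshRNA libraries had 87.6, 305 and 84.6 CPM in KD and 117, 211 and 146 CPM in NTC. The syn-gRNA range overlapped agoshRNA only through its letter B. The gRNA libraries had 49.1, 165 and 142 CPM in KD and 109, 156 and 138 CPM in NTC. The pre-gRNA libraries had 122, 45.8 and 144 CPM in KD and 93.3, 40.1 and 117 CPM in NTC. All gRNA and pre-gRNA libraries lay below all syn-gRNA libraries. The highest NEAT1 library had 10.8 times the CPM of the lowest.

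KCNQ1OT1 (ENSG00000269821.1_4, hg19 chr11:2629558-2721224, minus strand, 91667 exonic bases) was the weakest of the 4 detected members, with a mean of 26.6 CPM. It lies antisense within KCNQ1, the gene of a potassium channel, and non-stranded reads of the overlap cannot be told apart. The syn-gRNA libraries A, B and C had 64.2, 42.2 and 57.9 CPM in KD and 60.1, 53.8 and 44.7 CPM in NTC. All 6 lay above the other 18 libraries, whose highest value was 36.9 CPM in agoshRNA KD B. The agoshRNA libraries had 3.57, 36.9 and 16.7 CPM in KD and 3.65, 23.8 and 20.1 CPM in NTC. The gRNA libraries had 4.99, 24.1 and 30.9 CPM in KD and 7.83, 18.1 and 29.1 CPM in NTC. The pre-gRNA libraries had 15.2, 5.68 and 28.9 CPM in KD and 12.9, 6.26 and 26.1 CPM in NTC. Letter A was lowest in agoshRNA and gRNA in both arms, as for MALAT1, and letter B was lowest in both arms of pre-gRNA, which for MALAT1 held in KD only. The ratio of the highest to the lowest library was 17.98.

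TUG1 (ENSG00000253352.9_4, hg19 chr22:31365231-31375381, plus strand, 10151 exonic bases) had a mean of 153 CPM. Annotated RNAs lie on the opposite strand within it, among them RP3-430N8.10, and non-stranded reads of an overlap cannot be told apart. How such reads were counted is not given in the sources used here. The syn-gRNA libraries A, B and C had 239.9, 182 and 252 CPM in KD and 234, 186 and 181 CPM in NTC. The agoshRNA libraries had 23.5, 295 and 81.9 CPM in KD and 27.1, 193 and 137 CPM in NTC. Here the highest library of all was agoshRNA KD B and the lowest agoshRNA KD A, a ratio of 12.6. The gRNA libraries had 52.2, 139 and 242 CPM in KD and 70.5, 128 and 256 CPM in NTC. The pre-gRNA libraries had 145.0, 31.3 and 234 CPM in KD and 115, 35.5 and 203 CPM in NTC. Letter C of gRNA and of pre-gRNA overlapped the syn-gRNA libraries in both arms, so TUG1 did not set that setup apart.

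MEG3 (ENSG00000214548.15_4, hg19 chr14:101245747-101327368, plus strand) was close to silent. Of all 24 libraries, pre-gRNA NTC B, syn-gRNA KD A and syn-gRNA KD B had 1 count each and the others had 0. A count of 0 allows up to 3 counts, which is 0.185 CPM in the deepest library and 0.273 CPM in the shallowest, counting error only. MEG3 did not pass the count filter of the main fits, and no fitted difference is given for it here.

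**Figure D1:**
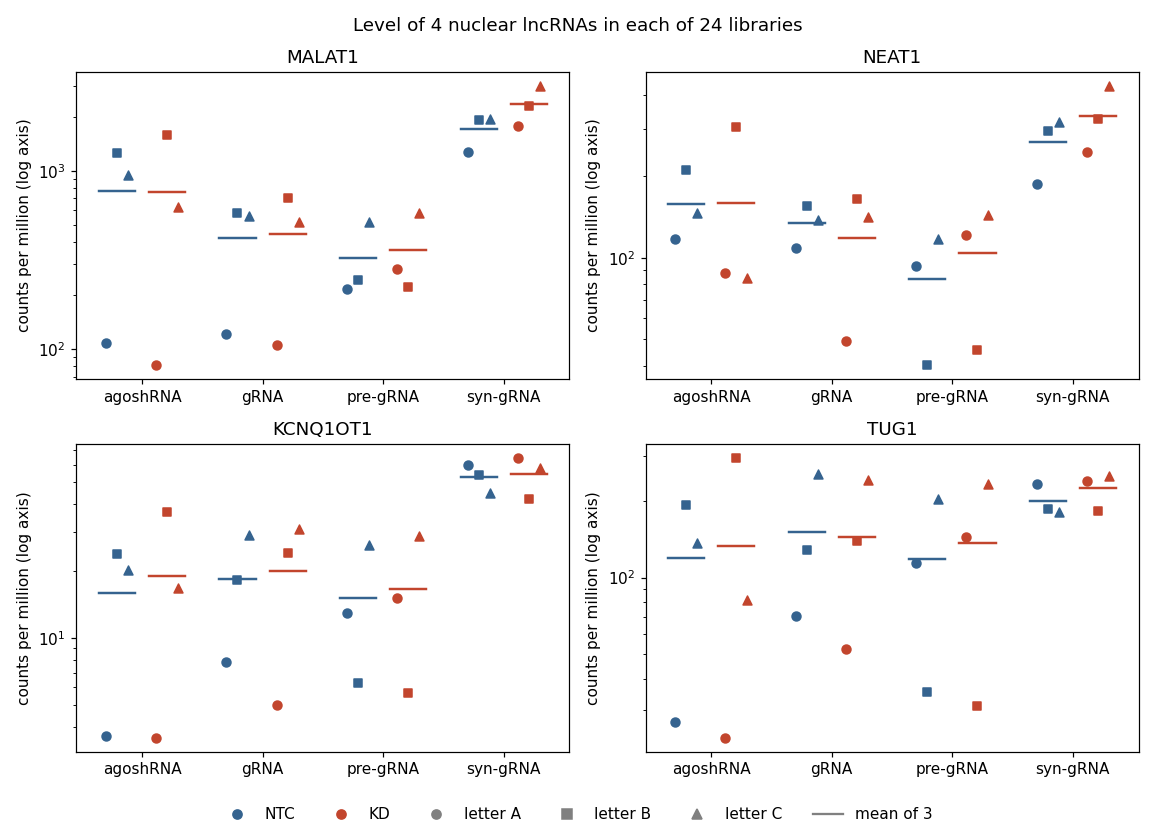
CPM (log axis) of MALAT1, NEAT1, KCNQ1OT1 and TUG1 in each of the 24 libraries, by setup, with KD in red, NTC in blue, the column letter as the marker shape and the mean of 3 libraries as a line. The syn-gRNA libraries sit close together and mostly high, and in the other setups the letters spread widely within each arm, mostly in the same order in KD and NTC.

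Per kilobase of exon, the order of levels differed from that of the counts. MALAT1 had a mean of 101 CPM per kilobase, TUG1 15.1, NEAT1 7.46 and KCNQ1OT1 0.290. The per-kilobase level of NEAT1 and KCNQ1OT1 is divided over their whole annotated exons, whichever isoform the reads came from. The ratio of MALAT1 to NEAT1 in CPM was not constant: it was 0.917 in agoshRNA NTC A, 7.42 in agoshRNA KD C and 4.62 in the median library. The ratio of KCNQ1OT1 to TUG1 varied least among the 6 pairs of members, from 0.0954 in gRNA KD A to 0.288 in syn-gRNA NTC B.

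By group mean, the order of MALAT1 levels began with syn-gRNA KD at 2361 ± 608 CPM (SD, n = 3) and syn-gRNA NTC at 1721 ± 385. The third group, agoshRNA NTC, stood at 772 ± 595, and its highest library (1257 CPM) lay just below the lowest of syn-gRNA NTC (1277 CPM). The fourth group, agoshRNA KD, did overlap syn-gRNA NTC, reaching 1584 CPM. From agoshRNA NTC down to pre-gRNA NTC at 325 ± 164, each group overlapped its neighbour in the order. For KCNQ1OT1 no other group overlapped the syn-gRNA groups, with syn-gRNA KD at 54.8 ± 11.3 and syn-gRNA NTC at 52.8 ± 7.74. Then came gRNA KD at 20.0 ± 13.4 and the rest down to pre-gRNA NTC at 15.1 ± 10.1. For NEAT1 (335 ± 93.2 in syn-gRNA KD to 83.6 ± 39.6 in pre-gRNA NTC) and TUG1 (225 ± 37.0 in syn-gRNA KD to 118 ± 83.9 in pre-gRNA NTC), every group overlapped the next.

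Group means of all 4 detected members were highest in syn-gRNA, in KD and NTC alike, and the fitted differences put sizes on this, most of them not called. In 1 DESeq2 model of all 24 libraries, MALAT1 was higher in syn-gRNA than in pre-gRNA by 2.46 ± 0.81 (log2, SE) in NTC and 2.81 ± 0.81 in KD libraries. It was higher than in gRNA by 2.16 ± 0.81 and 2.50 ± 0.81, and than in agoshRNA by 1.11 ± 0.81 and 1.55 ± 0.81. The large errors come with the spread between letters of the other setups described above. NEAT1 was higher in syn-gRNA than in pre-gRNA by 1.78 ± 0.51 in NTC and 1.81 ± 0.51 in KD libraries. Against gRNA its differences were 1.14 ± 0.51 and 1.58 ± 0.51, and against agoshRNA 0.75 ± 0.51 and 1.03 ± 0.51. The order of the setups was the same for MALAT1 and NEAT1, with pre-gRNA farthest from syn-gRNA. KCNQ1OT1 differed from syn-gRNA by similar amounts in every setup: 1.90 ± 0.74 in NTC and 1.85 ± 0.74 in KD libraries against pre-gRNA, 1.66 ± 0.74 and 1.55 ± 0.74 against gRNA, and 1.68 ± 0.74 and 1.44 ± 0.74 against agoshRNA. TUG1 had the smallest differences, 0.53 to 0.88 with an SE of 0.77.

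**Figure D2:**
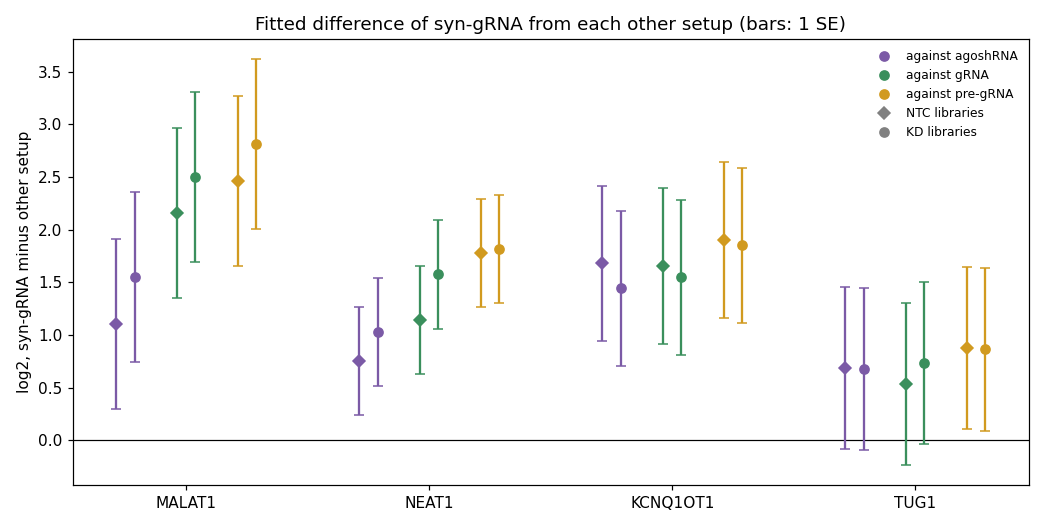
Fitted log2 difference of syn-gRNA from each other setup (y axis), for 4 members (x axis), in NTC libraries (diamonds) and KD libraries (circles), with bars of 1 standard error. All 24 values lie above 0, from 0.53 for TUG1 against gRNA in NTC libraries to 2.81 for MALAT1 against pre-gRNA in KD libraries.

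Calls in this report are Benjamini-Hochberg adjusted p-values under 0.05 over all genes tested. Between pre-gRNA and syn-gRNA, NEAT1 was called in NTC libraries, 1 of 4 members tested, where 3.25% of 20172 genes were called, and NEAT1 and MALAT1 in KD libraries, where 2.52% were. With edgeR, none of these 3 calls was made. No member was called in the NTC libraries of agoshRNA against syn-gRNA (1.84% of genes called), gRNA against syn-gRNA (1.32%), agoshRNA against gRNA (0.0496%), agoshRNA against pre-gRNA (0.0347%) or gRNA against pre-gRNA (0%). None was called in the KD libraries of the same pairs either, where 3.14%, 1.58%, 0.0446%, 0.0446% and 0% of genes were. Because the members were chosen with these contrasts in view, nothing is read from those counts. By ranges, all 6 syn-gRNA libraries lay above all 6 pre-gRNA libraries for MALAT1, NEAT1 and KCNQ1OT1, 3 of 4 members, as they did for 5.52% of genes averaging 50 or more counts. They lay above all 18 other libraries for KCNQ1OT1 alone, as for 1.92% of such genes.

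With letters ignored, the KD and NTC libraries of each setup overlapped for all 4 detected members, and no difference was called. In the DESeq2 fits of 6 libraries per setup, 0 of 4 members were called in any setup, as were 0% of the 17806 to 18717 genes tested. Unadjusted p-values were under 0.05 for 0 genes in agoshRNA, 17 in gRNA, 2 in pre-gRNA and 55 in syn-gRNA, and edgeR also called 0. MALAT1 differed between KD and NTC by 0.44 ± 0.22 (log2, SE) in syn-gRNA, 0.11 ± 0.68 in gRNA, 0.10 ± 0.50 in pre-gRNA and 0.03 ± 1.06 in agoshRNA. For NEAT1 these differences were 0.31 ± 0.23, −0.11 ± 0.46, 0.28 ± 0.49 and 0.06 ± 0.67 in the same order. Those of KCNQ1OT1 were 0.04 ± 0.17, 0.16 ± 0.63, 0.11 ± 0.61 and 0.31 ± 0.93, and those of TUG1 0.16 ± 0.15, −0.03 ± 0.58, 0.19 ± 0.68 and 0.20 ± 0.98. From the same counts, the authors' deposited DESeq2 results gave MALAT1 a log2 fold change of 0.49 in syn-gRNA (unadjusted p = 0.419). Their values for MALAT1 in agoshRNA, gRNA and pre-gRNA were −0.04, 0.10 and 0.18. No difference of the KD effect between any pair of setups was called for a member or for any other gene (0% of 20172). DESeq2 gave an unadjusted p under 0.05 in that test to 29 to 45 genes per pair, and edgeR called 0 as well.

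Within a letter, KD and NTC libraries were compared directly, since their deviations from the group means correlated in all 12 pairs. The pairing was weak in parts of several setups. In gRNA, KD B had r = 0.418 with NTC B and 0.262 with NTC C. In pre-gRNA, KD A had 0.636 with NTC A and 0.494 with NTC C. For syn-gRNA, KD A had r = 0.79 with NTC A, but KD B had 0.451 with NTC B and 0.434 with NTC C. KD C had 0.361 with NTC C and 0.24 with NTC B. In syn-gRNA, MALAT1 was higher in KD in all 3 letters, by 0.48, 0.25 and 0.62 (log2 ratio of CPM) in A, B and C, a mean of 0.45 ± 0.18 (SD). NEAT1 was higher in KD in the same 3 pairs, by 0.39, 0.14 and 0.44. NEAT1 was also higher in KD in all 3 letters of pre-gRNA, by 0.38, 0.19 and 0.30, a mean of 0.29 ± 0.095. The other 13 combinations of a member and a setup had letters in both directions. In agoshRNA, letter B was higher in KD for all 4 members (MALAT1 0.33, NEAT1 0.53, KCNQ1OT1 0.62, TUG1 0.61) and letter C lower for all 4 (−0.60, −0.78, −0.26 and −0.74). In gRNA, letter A was lower in KD for all 4, from −0.20 for MALAT1 to −1.14 for NEAT1, but the MALAT1 value turned to 0.07 with DESeq2 size factors and to 0.03 with TMM scaling. In pre-gRNA, letter A was higher in KD for all 4 members, from 0.22 for KCNQ1OT1 to 0.38 for NEAT1.

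Among the 13835 genes averaging 50 or more counts, the share with KD higher in all 3 letters was 11.8% in syn-gRNA and 19.5% in pre-gRNA. Of the 4 members, 2 did so in syn-gRNA and 1 in pre-gRNA. This share was 10.1% in agoshRNA and 6.42% in gRNA, with no member. With the letter as a term in the fit, the KD difference of MALAT1 in syn-gRNA was 0.44 ± 0.09, and it was the 1 gene called of 18513 (0.0054%). That call was known when MALAT1 was chosen. The same fit gave NEAT1 0.32 ± 0.09 in syn-gRNA and 0.26 ± 0.11 in pre-gRNA, neither called. In agoshRNA, gRNA and pre-gRNA this DESeq2 fit called 0% of genes, although 105, 113 and 1011 had an unadjusted p under 0.05, and edgeR with the same term called 0, 3 and 0.

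**Figure D3:**
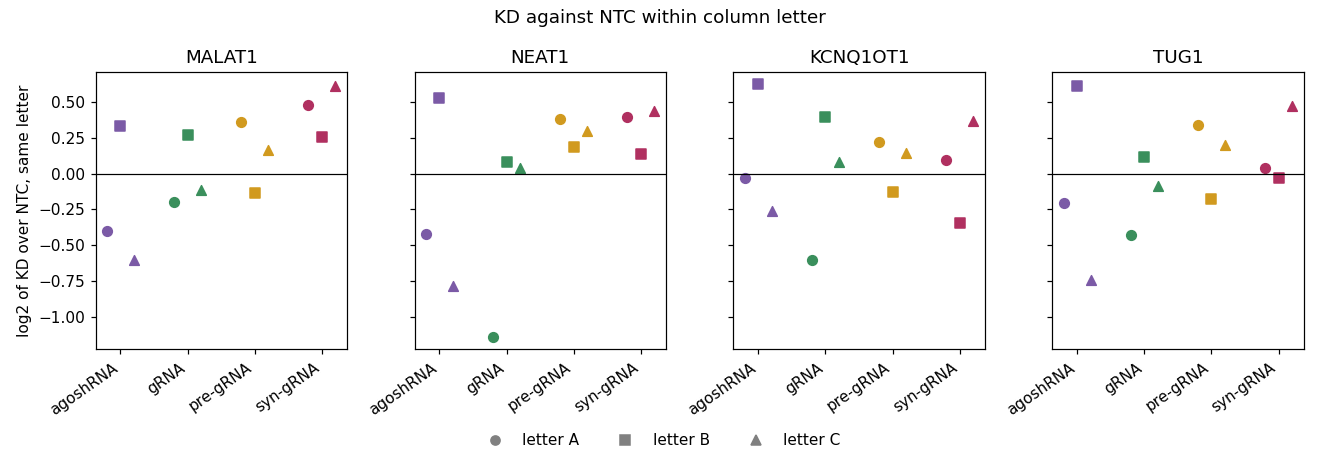
Log2 ratio of KD to NTC in CPM within each column letter (y axis), by setup (x axis), for 4 members, with the letter as the marker shape. All 3 points lie above 0 for MALAT1 in syn-gRNA and for NEAT1 in syn-gRNA and pre-gRNA, and in every other panel position the letters fall on both sides of 0.

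Other measures of the libraries moved with these ratios. In syn-gRNA, snoRNA genes, whose RNAs are nuclear and lack poly(A) tails, took 0.138%, 0.203% and 0.265% of counts in KD libraries A, B and C and 0.113%, 0.193% and 0.202% in NTC, so their share was also higher in KD in each letter. Their share was 0.030% to 0.077% in all libraries of the other setups, below every syn-gRNA library. Over the 24 libraries it followed MALAT1 with a Pearson r of 0.767 and a Spearman rho of 0.926, and NEAT1 with 0.768 and 0.890. These values were 0.679 and 0.851 for KCNQ1OT1 and 0.455 and 0.621 for TUG1. With each setup centred, r was 0.469 for MALAT1, 0.529 for NEAT1, 0.215 for KCNQ1OT1 and 0.211 for TUG1. The GC slope of KD relative to NTC differed by letter too: it was lower in KD in letters A and C of syn-gRNA and higher in letter B. With a GC trend taken out of each library, the MALAT1 ratios in syn-gRNA were 0.46, 0.32 and 0.44. TUG1 also became higher in KD in all 3 letters there, but by only 0.04 and 0.004 in A and B, and by 0.34 in C. The part of the snoRNA share in the ratios was not tested.

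The 4 detected members rose and fell together over libraries. With each setup centred on its mean, KCNQ1OT1 and TUG1 were closest (Pearson r of log2 CPM 0.969, n = 24 libraries), followed by MALAT1 with KCNQ1OT1 (0.905) and with TUG1 (0.842). NEAT1 followed TUG1 with r = 0.803, KCNQ1OT1 with 0.752 and MALAT1 with 0.695. Libraries share a setup and a letter, so these are not 24 independent points. Within the 6 libraries of agoshRNA, r ran from 0.712 to 0.993 over the 6 pairs of members, in gRNA from 0.751 to 0.969 and in pre-gRNA from 0.689 to 0.983. In syn-gRNA the members split into pairs instead: MALAT1 went with NEAT1 (0.978) and KCNQ1OT1 with TUG1 (0.858), while the 4 values across those pairs ran from −0.385 to −0.013. Averaged over both arms, letter C was highest for MALAT1 and NEAT1 there, and letter A for KCNQ1OT1 and TUG1. In KD alone, TUG1 was highest in letter C.

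Measures taken over whole libraries moved with the members, first of all the GC slope. Whether they are technical was not tested. Its setup-centred r was −0.982 with TUG1, −0.965 with KCNQ1OT1, −0.850 with MALAT1 and −0.825 with NEAT1. The members are AT-rich, with 40.3% GC in MALAT1, 43.1% in TUG1, 43.7% in KCNQ1OT1 and 44.1% in NEAT1 against a median of 48.8% over genes averaging 50 or more counts. Following the slope was common: 4396 of 13835 such genes (31.8%) had r under −0.8 with it, and 3529 (25.5%) had r over 0.8. After a GC trend was taken out of each library, r between KCNQ1OT1 and TUG1 was 0.933, MALAT1 with KCNQ1OT1 0.789 and MALAT1 with TUG1 0.646, while NEAT1 with KCNQ1OT1 fell to 0.423. Gene length behaved alike: the slope of log2 level per doubling of length had a setup-centred r of 0.949 with TUG1, 0.909 with KCNQ1OT1, 0.813 with NEAT1 and 0.700 with MALAT1. The letters and these slopes cannot be told apart in these libraries.

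**Figure D4:**
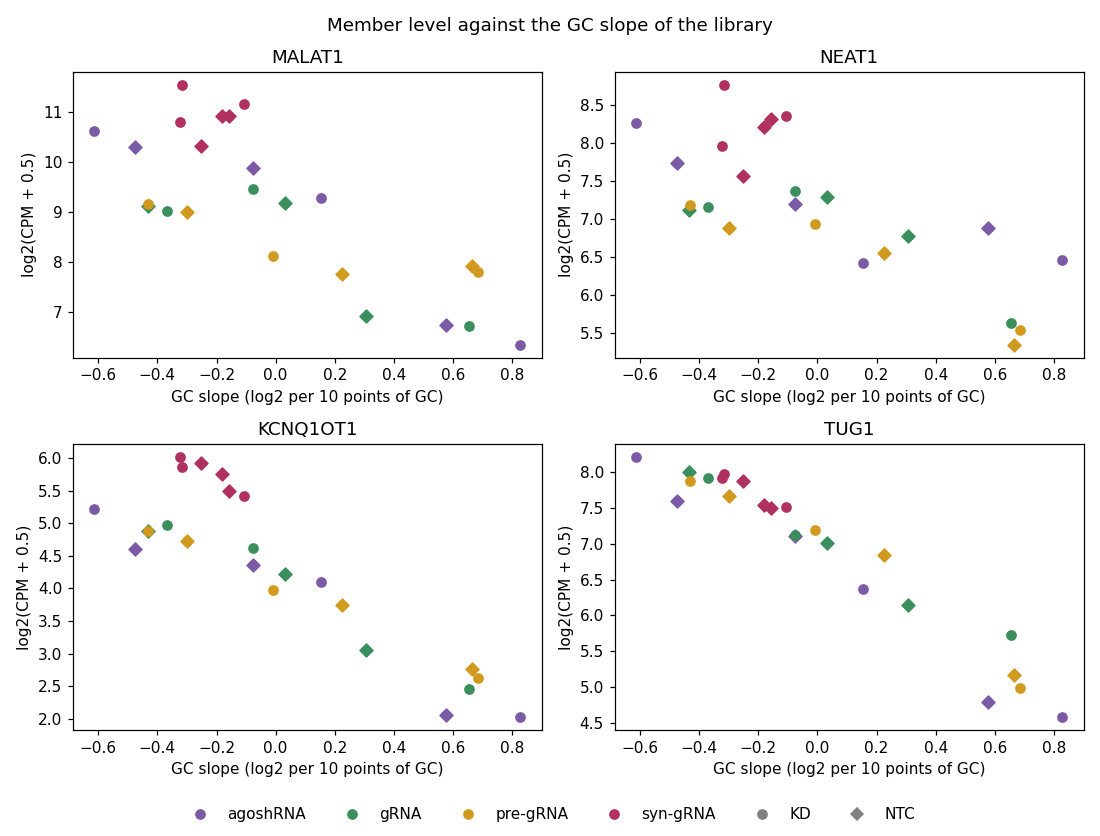
Log2(CPM + 0.5) of each member (y axis) against the GC slope of the library (x axis, change in log2 level per 10 points of GC), for 24 libraries coloured by setup, with circles for KD and diamonds for NTC. Levels fall from the left to the right in all 4 panels, most tightly for TUG1, and for MALAT1, NEAT1 and KCNQ1OT1 the syn-gRNA libraries lie above other libraries of similar slope.

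The genes whose setup-centred pattern was most like each member's, among 13834 genes averaging 50 or more counts, were mostly protein-coding and AT-rich. MALAT1 was most like RGS2 (r = 0.976), a regulator of G-protein signalling, then TAF9 and ZCRB1. NEAT1 was most like FAM69A (0.970) and the splicing factors SRSF1 (0.962) and TRA2B (0.956). KCNQ1OT1 was most like RLIM (0.992), a ubiquitin ligase, then UHMK1 and SPOPL. TUG1 was most like TOPBP1 (0.995), a protein of the DNA damage response, then ZCCHC6 and RP3-430N8.10, which overlaps it. How many genes a member resembled differed widely. An r over 0.9 was reached by 3136 genes (22.7%) for TUG1 and 2570 (18.6%) for KCNQ1OT1, against 217 (1.57%) for MALAT1 and 115 (0.831%) for NEAT1.

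Genes linked to the members were taken from lists written with earlier results of these data known, and adjusted p-values here are from the DESeq2 fits. In KD against NTC, 0 of them were called in any setup by DESeq2 or by edgeR. Against syn-gRNA, DESeq2 called 9 list genes in NTC libraries and 8 in KD libraries, and edgeR called 1 and 4. Of 30 paraspeckle proteins, 1 was called against syn-gRNA: SFPQ, an essential NEAT1-binding protein, was higher in syn-gRNA than in agoshRNA by 0.86 ± 0.26 (log2, SE) in NTC (adjusted p = 0.0452) and 0.89 ± 0.26 in KD libraries (adjusted p = 0.0255). In those contrasts 1.84% and 3.14% of all genes were called, and edgeR did not call SFPQ (adjusted p = 0.15 and 0.0929). Its partner NONO differed by 0.015 ± 0.19 and 0.020 ± 0.19 in the same contrasts, and PSPC1 by 0.64 ± 0.21 and 0.58 ± 0.21, neither called. The median of the 30 was 0.13 in NTC against 0.01 over all genes tested.

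Of 20 nuclear speckle proteins and MALAT1 partners, 2 were called, both higher in syn-gRNA, where 1.32% to 3.25% of all genes were called per contrast. The splicing factor SRSF2, a classic speckle marker, was called against all 3 other setups in both arms. It differed from pre-gRNA by 1.51 ± 0.28 in NTC libraries (adjusted p = 7.15e-05) and by 1.56 ± 0.28 in KD libraries (adjusted p = 2.87e-05). With edgeR it was called in these contrasts (adjusted p = 0.0198 and 0.0137) and in KD libraries against agoshRNA (0.0206) and gRNA (0.0393), but not in NTC libraries against those (0.0696 and 0.0791). SRSF1, which binds MALAT1, was called against pre-gRNA, by 1.72 ± 0.45 in NTC (adjusted p = 0.0116) and 1.604 ± 0.45 in KD libraries (adjusted p = 0.023), and edgeR called it in neither (adjusted p = 0.0704 and 0.093). The scaffold proteins of speckles, SON and SRRM2, differed from pre-gRNA by 0.43 ± 0.54 and 0.56 ± 0.25 in NTC libraries and were not called. The list median against pre-gRNA was 0.60 in NTC, beside −0.04 over all genes. In NTC libraries the GC slope ran from −0.30 to 0.67 in pre-gRNA and from −0.25 to −0.16 in syn-gRNA. Its part in this and the other list medians was not tested.

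None of the 13 genes of MALAT1 tail processing, such as the RNase Z gene ELAC2, was called against syn-gRNA in either arm. Of 21 genes of nuclear RNA decay and polyadenylation, 1 was: the exosome subunit EXOSC2 was lower in syn-gRNA than in pre-gRNA, with a log2 difference of −1.03 ± 0.30 in NTC libraries (adjusted p = 0.0253). It was not called in KD libraries or with edgeR (adjusted p = 0.0967 in NTC).

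Other non-coding RNAs gave a comparison group. Of 13 other nuclear lncRNAs tested, 1 was called, LINC-PINT, higher in syn-gRNA than in pre-gRNA by 1.83 ± 0.46 in NTC (adjusted p = 0.00772). In KD libraries 0 of the 13 were called, and edgeR did not call LINC-PINT in NTC (adjusted p = 0.0633). Of 13 largely cytoplasmic lncRNAs, 4 were called against pre-gRNA in NTC, all higher in syn-gRNA, where 3.25% of all genes were called. They were the snoRNA host genes SNHG1 (1.95 ± 0.51, adjusted p = 0.011), SNHG12 (1.24 ± 0.37, adjusted p = 0.0319), GAS5 (1.17 ± 0.32, adjusted p = 0.0178) and SNHG6 (1.05 ± 0.27, adjusted p = 0.00817). All 4 were called against pre-gRNA in KD libraries too, and SNHG12 also against agoshRNA and gRNA in both arms. With edgeR, none of the 4 was called in NTC libraries (adjusted p = 0.0555 to 0.0967 against pre-gRNA), and in KD libraries GAS5 was called against pre-gRNA (0.0387) and SNHG12 against agoshRNA (0.0384). Against pre-gRNA in NTC, the medians of the nuclear and cytoplasmic lists were 0.59 and 0.81, beside −0.04 over all genes. The part of the GC slope in them was not tested.

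The genes beside the members were tested as well. Of 12 tested neighbours of MALAT1, NEAT1 and TUG1, none was called in either arm, and FRMD8, a neighbour of NEAT1, differed by −1.11 ± 0.51 between syn-gRNA and pre-gRNA in NTC. The median of these neighbours in that contrast was −0.42, beside −0.04 over all genes. Of 12 tested genes of the KCNQ1OT1 imprinted domain, none was called, and their median there was −0.50. KCNQ1, the host, differed by −0.62 ± 0.43 in that contrast and CDKN1C, a growth inhibitor silenced in cis by KCNQ1OT1, by 0.71 ± 0.37. KCNQ1 itself had at most 90 counts, against at most 895 for KCNQ1OT1. Of 8 genes of the DLK1 and MEG3 domain, 2 passed the filter, BEGAIN with 14 to 72 counts and WDR25 with 28 to 131. DLK1 had at most 3 counts in any library, and RTL1, MEG8 and MEG9 at most 1. WDR25, named after its values were seen, was lower in syn-gRNA than in agoshRNA in KD libraries (−1.53 ± 0.36, adjusted p = 0.00372) and than in pre-gRNA (−1.20 ± 0.36, adjusted p = 0.0427). With edgeR the first was called (adjusted p = 0.0365) and the second was not (adjusted p = 0.0975).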

How the data were processed

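Libraries of 24 samples in 8 groups were analysed. The deposited tables hold read counts per gene, made by the authors with Trim Galore, STAR 2.7.3a and featureCounts against hg19, per the submitters' processing notes. The 4 tables hold identical counts for 60658 genes, and each has 24 columns of normalized counts not used here. Gene length (other), log2 fold changes and p-values in the deposited tables are the authors', from DESeq2 per the submitters' processing notes. The annotation release is not given in the sources used here. GC content and sequences came from GENCODE release 29, which matched 93.2% of gene IDs, and promoters from RefSeq.

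Counts were scaled to CPM by library totals, and log2 values used CPM + 0.5. DESeq2 1.42.0 (R 4.3.3) was fitted per setup and once over all 24 libraries, keeping genes that reached 10 counts in 3 or more libraries, and adjusted p-values under 0.05 were called. edgeR 4.0.16 was the alternative. Both were run on simulated counts with a small fixed dispersion and no letter effect, edgeR only for KD against NTC in syn-gRNA. Those runs do not show how either performs at the spread between letters seen here. The members and gene lists were chosen with earlier results of these data known. Named genes were the members, the 3 genes most like each, list genes called between NTC groups (at most 4 per list), and neighbours, hosts and core proteins.

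Columns carry letters A to C and the labels numbers, with nothing linking them, so libraries are named by letter. The deviations of KD and NTC libraries of one letter from their group means correlated in all 12 pairs (r 0.36 to 0.97 over 13835 genes). Letters were therefore treated as pairs, although in syn-gRNA KD B was almost as close to NTC C as to NTC B. Nothing says that replicates were separate cultures, so p-values measure only the spread between these samples. Total counts per library set the precision, and a count of 0 allows 3 counts.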

Additional observations from a re-analysis of the deposited data

How the results depend on the processing

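Members stayed higher in syn-gRNA than in each other setup in all 288 alternative values of 24 results (log2 differences 0.17 to 3.26), but their calls moved. Between pre-gRNA and syn-gRNA, the members called went from 1 in NTC libraries and 2 in KD libraries to 0 and 0 with edgeR. In NTC libraries, 3 were called without the 5 libraries of GC slope over 0.5, and 3 with only the 6 libraries of the pair. Between gRNA and syn-gRNA, 0 became 3 and 3 in NTC libraries and 1 and 3 in KD libraries under the same settings. Leaving out 1 library gave 0 to 2 members called against pre-gRNA in NTC and KD libraries, 0 to 2 against gRNA in KD and 0 to 3 against agoshRNA in KD libraries. Against pre-gRNA the count was 0 without pre-gRNA A or B, or without syn-gRNA B or C, of the arm compared. Against agoshRNA it was 3 without agoshRNA KD B. The cause was not tested. For fits leaving out 1 library or using only the pair, the share of all genes called is not given here. Nothing is read from those counts of members.

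KD over NTC differences turned sign in 36 of 192 alternative values, in 13 of 16 results. In syn-gRNA, 1 member was called in place of 0 with the replicate block by column letter, in DESeq2 and in edgeR. The block changed no other member's call. The share of all genes that edgeR called with this block in syn-gRNA is not given here. Label numbers could not be used as pairs, since nothing links them to the columns. The median setup-centred r went from 0.82 to 0.57 with the GC trend removed. List genes called against syn-gRNA went from 9 to 1 with edgeR and 28 without the 5 libraries in NTC, and from 8 to 4 and 23 in KD. Over all genes, edgeR called 16, 0 and 149 in NTC libraries and 192, 38 and 183 in KD libraries of syn-gRNA against agoshRNA, gRNA and pre-gRNA, where DESeq2 called 371, 266, 656, 634, 318 and 508. Without the 5 libraries, DESeq2 called 483, 1528, 1569, 550, 307 and 1261, and 148 and 318 between agoshRNA and gRNA or pre-gRNA in NTC in place of 10 and 7. Settings without those 5 libraries, and those removing the GC trend, were chosen after seeing the data. Depth limits MEG3, with 3 counts in all, and KCNQ1OT1, with 48 counts in its lowest library.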
